A study of Saccharomyces cerevisiae with 6 samples.

Results

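Introns end in AG in almost all eukaryotic genes, and most budding yeast introns end in the consensus YAG, where Y is C or U. Here, the alternative 3′ splice sites (3′SS) whose last letter is A, C or U in the RNA were followed in *prp18Δupf1Δ* and *upf1Δ* cells. These non-G sites were taken from the junction tables as junctions that keep the annotated 5′SS of an intron and move its 3′SS to a trinucleotide not ending in G. Over the 6 libraries, each was read with at least 10 bp of perfect match upstream of the junction and 40 bp downstream. The rule found 492 sites in 188 introns. Before these overhang limits, 704 non-G sites were listed, out of 1835 alternative 3′SS among 5274 junctions. Within the limits were 1501 alternative 3′SS. Of the 492 sites, 324 ended in U, 126 in A and 42 in C, and the second letter was A in 359. At the border of the rule, 14 sites had a longest upstream overhang of 10 or 11 bp and held 16 junction reads, and 8 sites with 8 or 9 bp, which were left out, held 11. At the downstream border, 9 sites with 40 to 42 bp held 10 reads, and 6 sites with 37 to 39 bp, left out, held 7.

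The tested strain lacked *PRP18* and *UPF1* (*upf1∆::HIS3MX6 prp18∆::kanMX6*, written upf1∆prp18∆ in the labels), and the other lacked *UPF1* alone. Both were *Saccharomyces cerevisiae* of the BY4741 background grown in YPD rich medium to mid-log phase, with 3 libraries per strain. The samples are numbered within each strain, and no label states if each was its own culture, so every p value reflects the spread among these libraries, which may be technical. Both strains lack the decay helicase Upf1p, and wild-type yeast is not analysed here. *prp18Δupf1Δ* libraries held 1250953, 900862 and 791819 annotated junction reads, and *upf1Δ* libraries 1347936, 1427758 and 1502384. In each strain, replicate 1 differed most from the other two. Set against replicates 2 and 3, its annotated counts gave a chi-square over degrees of freedom of 112 and 114 in *prp18Δupf1Δ*, where replicates 2 and 3 gave 5.74, and of 111 and 121 in *upf1Δ*, where they gave 14.2. The transcripts of *PRP18* and *UPF1* themselves were not analysed here.

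In the second step of splicing, the spliceosome joins the first exon to the exon behind the 3′SS, after the 5′ end of the intron has been joined to the branch point adenosine. The G at the end of the intron pairs with the first G of the intron when the 3′SS is docked. Prp18p is a second step factor that sits close to the docked 3′SS, and Upf1p drives the decay of transcripts with premature stop codons, which many misspliced transcripts are. A non-G 3′SS lacks the letter that almost every intron has at its end.

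The introns on which the results turn are printed here to let the sites be seen between the branch site and the annotated 3′SS. Each line runs 5′ to 3′ on the coding strand of the R64 genome, begins with the branch site (the branch point is the last A of its first 7 letters) and ends with the annotated 3′SS. Letters in capitals are the non-G trinucleotides that entered the test, and neighbouring ones can overlap. All 12 introns lie between coding parts of their genes. Sites that rose in *prp18Δupf1Δ* lie in the first 8, no site passed the threshold in *YOS1*, whose more upstream intron is shown, and 1 site fell in each of the last 3.
*NYV1*, chrXII:327259-327299, minus strand, CAU: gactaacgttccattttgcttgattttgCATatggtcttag
*RPS0B*, chrXII:242646-242680, plus strand, UAU: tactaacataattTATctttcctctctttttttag
*PRE3*, chrX:435304-435343, plus strand, UAU, UAA, AAU and AAU: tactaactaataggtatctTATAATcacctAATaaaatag
*UBC4*, chrII:407028-407058, minus strand, CAU and UAU: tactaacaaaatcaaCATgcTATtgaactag
*RPS27A*, chrXI:158928-158966, plus strand, UAU: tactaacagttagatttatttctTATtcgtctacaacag
*MUD1*, chrII:479390-479434, plus strand, UAU: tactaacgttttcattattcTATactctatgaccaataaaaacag
*EFB1*, chrI:142580-142619, plus strand, AAU, UUU and UCU: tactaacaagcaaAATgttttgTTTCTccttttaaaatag
*RPL31A*, chrIV:322669-322703, plus strand, UUU, CAU, UAU and AAU: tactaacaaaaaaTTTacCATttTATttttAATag
*YOS1*, chrV:307800-307848, plus strand, AAU, UAU, AAU and UAU: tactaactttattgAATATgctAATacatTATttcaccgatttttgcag
*RPS16A*, chrXIII:552451-552495, plus strand, UAA, AAU, CAU and UAC: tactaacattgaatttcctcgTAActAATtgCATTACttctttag
*RPS10B*, chrXIII:732831-732875, plus strand, CAU: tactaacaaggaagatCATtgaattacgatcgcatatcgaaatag
*RPL37A*, chrXII:522977-523028, plus strand, CAA: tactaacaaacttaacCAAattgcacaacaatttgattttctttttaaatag

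A second set of sites lies within 3 nt of the annotated 3′SS, and these are shown with the last 12 letters of the intron and the first 6 of the exon. Capitals again mark the non-G trinucleotide.
*RPS18A* AGU, chrIV:1360393-1360410, plus strand: ttttttacgcAGTttgtt
*RPL7A* AGA, chrVII:365521-365538, minus strand: gtattattacAGAaaaat
*RPL29* CCA, chrVI:223435-223452, minus strand: cgtcttctCCAgaaaatg
*UBC9* ACA, chrIV:337623-337640, plus strand: cttgaataACAgaaaaaa

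Non-G sites were read in both strains, and they were a small part of splicing. Junction reads at all 492 sites came to 0.780, 0.684 and 0.706 per 1000 annotated junction reads in *prp18Δupf1Δ* libraries, against 0.553, 0.436 and 0.477 in *upf1Δ* libraries. The strains did not overlap, and the means were 0.723 ± 0.051 and 0.489 ± 0.060 (SD, n = 3 each, two-sided exact permutation p = 0.1, below which 3 against 3 libraries cannot go). Each strain's sites were only partly shared, with 159 sites seen in *prp18Δupf1Δ* alone, 150 in *upf1Δ* alone and 183 in both. Partial sharing was not particular to them: of all 1501 alternative 3′SS within the overhang limits, 416 were seen in *prp18Δupf1Δ* alone, 431 in *upf1Δ* alone and 654 in both. A single read over the 6 libraries stood behind 198 of the 492 sites, so being seen in 1 strain says little about any one of them, and 74 sites had 10 reads or more. Every rate in this and the next paragraphs is relative to the annotated reads of all introns, so it also moves with the share of each host transcript.

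The summed reads differed between strains according to the letters of the site (the plot of reads by library). Upstream of the annotated 3′SS and past the mismatch filter (at least 50% of gapped reads free of a mismatch in the 10 bp around the junction), sites with A in the second place and U at the end (AU sites) had 0.373, 0.415 and 0.416 reads per 1000 annotated reads in *prp18Δupf1Δ*, against 0.211, 0.222 and 0.232 in *upf1Δ*. Upstream sites without A in the second place, most of them ending in U, had 0.0256, 0.0355 and 0.0316 in *prp18Δupf1Δ* and 0.00371, 0.00420 and 0.00533 in *upf1Δ*, a ratio of means of 7.0. Upstream sites ending in AA or AC went the other way, with 0.0240, 0.0211 and 0.0215 in *prp18Δupf1Δ* and 0.0460, 0.0672 and 0.0592 in *upf1Δ*, a ratio of 0.386. In each of these 3 groups, the libraries of the strains did not overlap (two-sided exact permutation p = 0.1 each). At 1 to 3 nt downstream of the annotated 3′SS, the levels overlapped, at 0.0919, 0.112 and 0.144 in *prp18Δupf1Δ* against 0.0957, 0.124 and 0.111 in *upf1Δ* (two-sided exact permutation p = 0.8). Over the 20 such library values tested, the Benjamini-Hochberg adjusted value of those with an exact permutation p = 0.1 was 0.118.

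**Figure D1:**
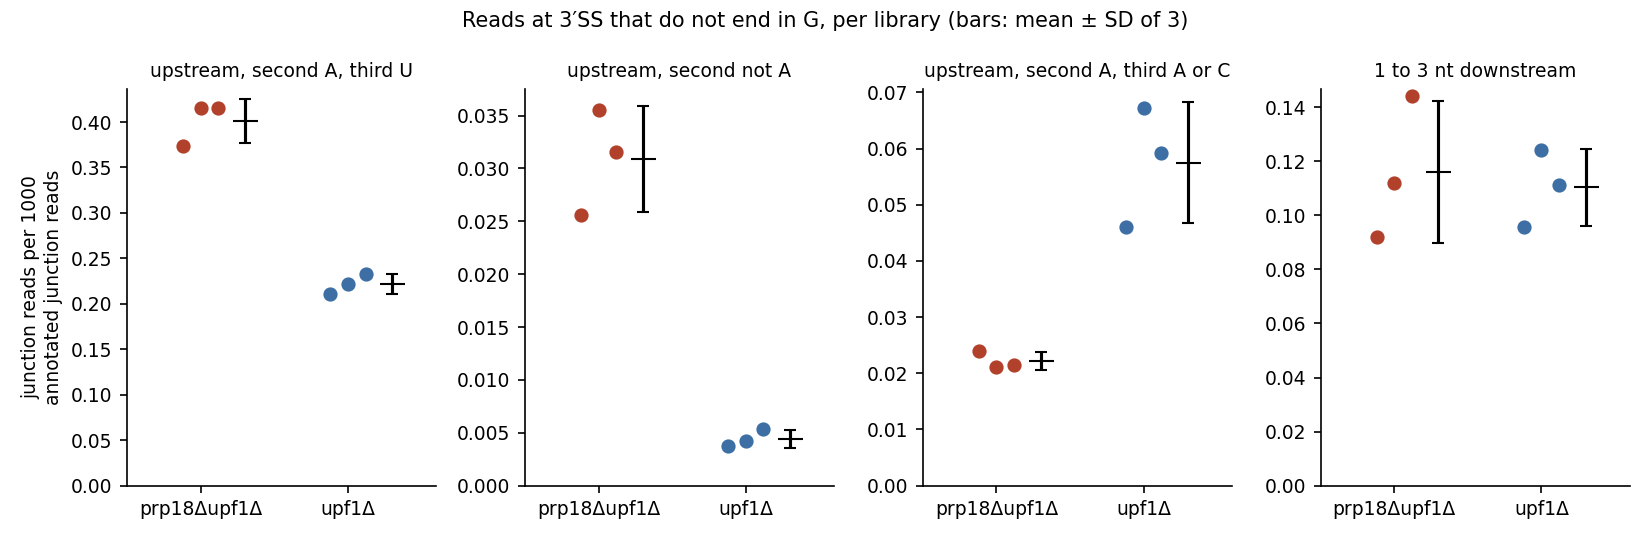
Junction reads at non-G 3′SS per 1000 annotated junction reads (y axis, linear from 0) in each of 3 libraries of *prp18Δupf1Δ* (left, red) and *upf1Δ* (right, blue), for 4 groups of sites past the mismatch filter, with the mean ± SD beside them. Upstream sites with U in the third place or without A in the second sat higher in every *prp18Δupf1Δ* library, upstream sites ending in AA or AC sat lower, and the sites 1 to 3 nt downstream overlapped.

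Single sites carried part of these sums. Leaving out the CAU site of *RPS16A*, which held 24 reads in *prp18Δupf1Δ* and 254 in *upf1Δ*, the upstream AU sites averaged 0.393 in *prp18Δupf1Δ* and 0.162 in *upf1Δ*, a ratio of 2.42 in place of 1.81. Leaving out the CAA site of *RPL37A* gave a ratio of 0.460 for the AA and AC sites, and leaving out *EFB1* gave 5.61 for the sites without A in the second place. Among upstream reads at AU, AA and AC sites, AU took 94.0%, 95.2% and 95.1% in *prp18Δupf1Δ* libraries (95% Wilson intervals from 91.5 to 95.7, 92.6 to 96.9 and 92.3 to 96.9). In *upf1Δ* libraries, AU took 82.1%, 76.8% and 79.7% (intervals 77.7 to 85.8, 72.5 to 80.6 and 75.7 to 83.2). This share was higher in every *prp18Δupf1Δ* library (two-sided exact permutation p = 0.1), and without the *RPS16A* CAU and *RPL37A* CAA sites it averaged 94.7% in *prp18Δupf1Δ* and 77.6% in *upf1Δ*. The intervals cover counting error only.

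G-ending alternative 3′SS had a median log2 change of 1.04 over the 446 that were tested, and the non-G sites were a smaller share of alternative 3′SS reads in *prp18Δupf1Δ*. The 14 sites that fail the mismatch filter were left out of the non-G reads, but their reads stayed in the total. On this count, the non-G sites took 8.40%, 8.32% and 8.65% of alternative 3′SS reads in *prp18Δupf1Δ* and 10.3%, 11.4% and 10.7% in *upf1Δ* (two-sided exact permutation p = 0.1). With the 14 sites out of the total as well, the difference of the means was -2.46 percentage points (two-sided exact permutation p = 0.1). The 95% Wilson intervals reached at most 9.4% in any *prp18Δupf1Δ* library and began no lower than 9.5% in any *upf1Δ* library. These shares include the *RPS16A* CAU site, with 24 reads in *prp18Δupf1Δ* and 254 in *upf1Δ*, and the non-G share without that site alone was not tested. Upstream AU sites alone took 6.01%, 5.84% and 5.81% of the same total in *prp18Δupf1Δ* and 6.07%, 6.05% and 6.08% in *upf1Δ*. These values were within counting error of each other, and their order depends on the 14 sites being kept in the total. Without the reads of the *RPS16A* CAU site, the upstream AU sites averaged 5.76% of the same total in *prp18Δupf1Δ* and 4.44% in *upf1Δ*. Every *prp18Δupf1Δ* library then stood above every *upf1Δ* library (two-sided exact permutation p = 0.1). Over all 492 sites, the difference in the non-G share was -2.74 percentage points (two-sided exact permutation p = 0.3), and among junctions with no ambiguous base it turned to 0.53 points (p = 0.5). With at least 1 read placed by both aligners, which leaves out *RPS16A* CAU, it was -1.32 points (two-sided exact permutation p = 0.5).

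Usage of each site was then compared as FAnS, the junction reads over the annotated junction reads of the same intron. Sites past the mismatch filter and with 6 or more gapped reads in all 6 libraries together were tested by edgeR's quasi-likelihood test with all other alternative junctions, 884 in all, and a Benjamini-Hochberg adjusted p under 0.05 was called. Of the 492 non-G sites, 116 were tested, of which 25 rose and 7 fell in *prp18Δupf1Δ*. Over all 884 junctions, 21.0% rose and 10.7% fell, over the 562 alternative 3′SS 32.0% rose and 7.65% fell, and over the 446 G-ending ones 34.8% rose and 8.07% fell. The 21.6% of non-G sites that rose is thus near the share over all junctions and below that of G-ending 3′SS, a difference that was not tested. By class of G-ending site, GAG rose at 84.2% of 38 sites, sites with C, G or U in the second place at 44.2% of 156, AAG at 25.2% of 127 and YAG at 17.6% of 125. The median log2 change was 0.30 over the 116 sites and 0.18 over all 884 junctions. Without replicate 1 of *upf1Δ*, 16 rose and 6 fell, and without replicate 1 of both strains 10 rose and 3 fell. Without replicate 1 of *prp18Δupf1Δ*, 22 rose and 3 fell, and 4 fell without replicate 3 of *prp18Δupf1Δ* or without replicate 2 of *upf1Δ*.

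All 25 rises ended in U and lay upstream of the annotated 3′SS (the plot of changes by letters). Of 68 tested upstream AU sites, 22 (32.4%) rose and 4 (5.88%) fell, with a median log2 change of 1.10. These shares are near the 32.0% and 7.65% over all 562 alternative 3′SS, whose median was 0.895. Over the 446 G-ending ones, 34.8% rose and 8.07% fell, with a median of 1.04. Among the 68 AU sites, 14 rose without replicate 1 of *upf1Δ*, 9 rose and 2 fell without replicate 1 of both strains, and 2 fell without replicate 1 of *prp18Δupf1Δ*. By first letter, 11 of 35 UAU, 9 of 24 CAU and 2 of 9 AAU sites rose, and no GAU site had enough reads to be tested. The 3 tested upstream sites with U in the third place and another letter than A before it, UUU and UCU of *EFB1* and UUU of *RPL31A*, all rose. Only 1 of them was called without replicate 3 of *prp18Δupf1Δ*, and 2 by DESeq2, without replicate 2 of *prp18Δupf1Δ* or without replicate 1 or 2 of *upf1Δ*. Of 13 tested upstream sites ending in AA or AC, none rose, and 3 of the 8 AA sites and none of the 5 AC sites fell. Their medians were -2.24 for AA and -2.27 for AC sites. The 3 falls came down to 1 by DESeq2, with the replicate number as a block, and without replicate 1 or 3 of *prp18Δupf1Δ* or replicate 2 or 3 of *upf1Δ*. They came down to 2 without replicate 1 of *upf1Δ*, and among the 9 sites with no ambiguous base none fell. Without replicate 2 of *upf1Δ*, 1 rose, the UAA site of *PRE3*. Counted at an unadjusted p under 0.05, 3 of the 32 tested sites at 1 to 3 nt downstream differed, and none passed the adjusted threshold by edgeR, DESeq2 or limma. Their median log2 change was 0.0077. Leaving out replicate 1 of *prp18Δupf1Δ* called 1 of them higher, leaving out replicate 3 of *upf1Δ* called 1 lower, and a minimum of 20 gapped reads called 1 of 15 higher.

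**Figure D2:**
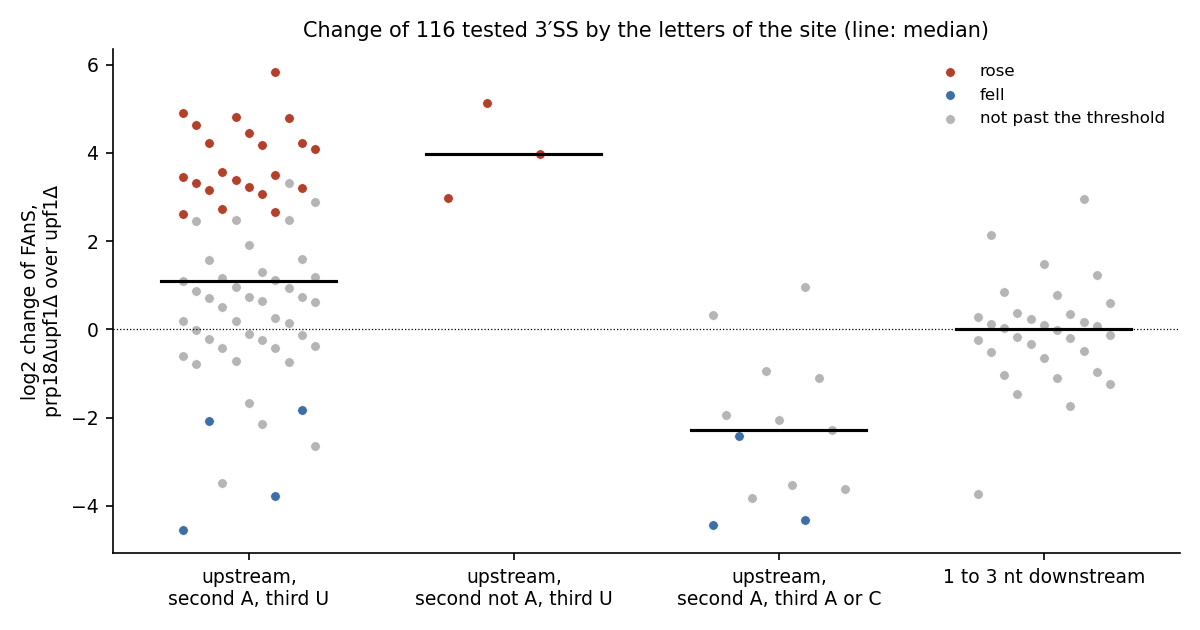
The log2 change of FAnS (y axis, *prp18Δupf1Δ* over *upf1Δ*) of each of the 116 tested non-G 3′SS, in 4 groups by position and letters (x axis), with the median of each group as a line. Red points rose and blue points fell past an adjusted p of 0.05, grey points did not pass it, and every red point lies in the 2 groups of upstream sites with U in the third place.

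The *NYV1* CAU site, 10 nt upstream of the annotated UAG and 25 nt from the branch point, had the highest mean FAnS in *prp18Δupf1Δ* of the sites with at least 20 gapped reads. *NYV1* encodes a SNARE of the vacuole membrane. Its CAU junction had 36, 61 and 41 reads in *prp18Δupf1Δ* libraries, against 0, 9 and 10 in *upf1Δ* libraries, on 249 to 354 annotated reads in *prp18Δupf1Δ* and 465 to 534 in *upf1Δ*. FAnS was thus 10.3%, 17.2% and 16.5% in *prp18Δupf1Δ*, all above the 0%, 1.94% and 1.87% in *upf1Δ*. The log2 change was 3.46 ± 0.43 (SE, adjusted p = 6.72e-10).

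The UAU site of *RPS0B* lay 19 nt upstream of the annotated UAG and 10 nt from the branch point, the shortest distance among the tested sites, which it shares with others. *RPS0B* encodes a protein of the small ribosomal subunit. UAU was read 56, 31 and 26 times in *prp18Δupf1Δ* and 2, 2 and 4 times in *upf1Δ*, a FAnS of 0.738%, 0.370% and 0.343% against 0.0193%, 0.0122% and 0.0228%. Replicate 1 of *prp18Δupf1Δ* was the highest, and every *prp18Δupf1Δ* library stood above every *upf1Δ* library (log2 change 4.63 ± 0.50, SE, adjusted p = 7.05e-12). STAR alone placed 32 of its 154 gapped reads, the most of any non-G site, and both aligners placed 119.

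*UBC4*, which encodes a ubiquitin-conjugating enzyme, held 2 non-G sites that behaved differently within 5 nt of each other. The UAU site 8 nt upstream had 12, 16 and 12 reads in *prp18Δupf1Δ* and 1, 2 and 1 in *upf1Δ* (log2 change 3.20 ± 0.64, SE, adjusted p = 5.57e-05). The CAU site 13 nt upstream, closer to the branch point, had 29, 24 and 17 reads in *prp18Δupf1Δ* and 19, 27 and 15 in *upf1Δ* (log2 change 0.20, adjusted p = 0.716). The more upstream site took 70.7%, 60.0% and 58.6% of the reads at both sites in *prp18Δupf1Δ*, against 95%, 93.1% and 93.8% in *upf1Δ*, with no overlap (two-sided exact permutation p = 0.1).

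*PRE3*, which encodes a catalytic subunit of the proteasome, held a UAU site 18 nt upstream that overlaps a UAA site 16 nt upstream. UAU had 5, 11 and 9 reads in *prp18Δupf1Δ* and 0, 0 and 1 in *upf1Δ* (log2 change 4.90 ± 0.90, SE, adjusted p = 1.08e-05). UAA, which had more reads than any other site ending in AA, had 10, 10 and 9 reads in *prp18Δupf1Δ* and 4, 17 and 4 in *upf1Δ* (log2 change 0.97, adjusted p = 0.137). Replicate 2 of *upf1Δ* was the high one, and without it the change of UAA was 2.00 (adjusted p = 0.00978). UAU took 33.3%, 52.4% and 50.0% of the reads at these 2 sites in *prp18Δupf1Δ* and 0%, 0% and 20% in *upf1Δ* (two-sided exact permutation p = 0.1).

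Such pairs of neighbouring tested sites were compared in the 16 introns that held at least 2 of them upstream. Of 29 pairs, 18 had reads in every library, and in 5 of these the share of the more upstream site did not overlap between strains (two-sided exact permutation p = 0.1 each, 0.36 adjusted over the 18). Besides the pairs of *UBC4* and *PRE3*, they were UAA with AAU in *PRE3*, UAU with AAU in *RPL31A* and UAU with UAA in *EFM5*.

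In *RPS27A*, whose product is a small subunit protein, UAU 13 nt upstream had 10, 22 and 11 reads in *prp18Δupf1Δ* and 0, 2 and 1 in *upf1Δ* (log2 change 3.56 ± 0.68, SE, adjusted p = 2.52e-05). The same order held for UAU of *YPR170W-B*, with 14, 9 and 6 reads against 4, 0 and 2. CAU of *RPL42B*, 32 nt upstream, had 10, 2 and 5 reads in *prp18Δupf1Δ* and 1, 0 and 0 in *upf1Δ*. UAU of *RPL36B* had 15, 3 and 2 reads in *prp18Δupf1Δ* and 1, 0 and 1 in *upf1Δ*, and its call rests on replicate 1 of *prp18Δupf1Δ* (adjusted p = 0.171 without it, 0.00324 with it). *RPL42B* and *RPL36B* encode large subunit proteins. *MUD1*, which encodes a protein of the snRNP that binds the 5′SS, had UAU 22 nt upstream with 2, 3 and 1 reads in *prp18Δupf1Δ* and 0, 0 and 1 in *upf1Δ*, on 97 to 378 annotated reads (log2 change 3.49 ± 1.2, SE, adjusted p = 0.0198). This call was lost without replicate 2 of *prp18Δupf1Δ* (adjusted p = 0.154) and without replicate 1 of *upf1Δ* (adjusted p = 0.0786). A second *MUD1* site, CAU 30 nt upstream, had 1 read in replicate 1 of *prp18Δupf1Δ* and none in the other 5 libraries.

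The other rises, like the smaller falls, rest on few reads and were picked out after their values were seen. *EFB1* encodes the exchange factor of translation elongation, and its AAU, UUU and UCU sites had 10, 6 and 9 reads in *prp18Δupf1Δ* against 0, 0 and 1 in *upf1Δ*. Against a floor of 3 reads over the *upf1Δ* libraries, AAU was at least 8.11-fold and UUU at least 4.87-fold higher in *prp18Δupf1Δ*. CAU of *ARP9*, which encodes an actin-related protein of chromatin remodelling complexes, had 3, 4 and 1 reads in *prp18Δupf1Δ* and 0 in each *upf1Δ* library, at least 3.99-fold higher. CAU of *RPL42A*, the paralogue of *RPL42B* (reads that match both copies were left where the deposited tables put them), had 2, 2 and 4 reads in *prp18Δupf1Δ* and 0 in each *upf1Δ* library, at least 3.92-fold higher. In *RPL31A*, UUU had 4, 6 and 3 reads in *prp18Δupf1Δ* and 0, 0 and 2 in *upf1Δ*, and AAU had 1, 6 and 2 against 0, 0 and 1. Its CAU and UAU sites in between did not pass the threshold, with 4, 2 and 6 against 6, 0 and 3 reads and 10, 5 and 6 against 6, 7 and 12. In all, 28 of the 116 tested sites had every *prp18Δupf1Δ* library above every *upf1Δ* library, near the 24.4% of all 884 junctions, and 20 of the 25 rises were among them. CAU of *PTC7*, which encodes a protein phosphatase, is 1 of the other 5, with 13, 0 and 4 reads in *prp18Δupf1Δ* and 1, 0 and 0 in *upf1Δ*. Its call rests on replicate 1 of *prp18Δupf1Δ* (adjusted p = 0.0994 without it). In *RPL31A*, the calls of UUU and AAU were lost without replicate 2 or 3 of *prp18Δupf1Δ* or replicate 1 or 2 of *upf1Δ* (adjusted p up to 0.0988 and 0.269), and those of *EFB1* UCU and *RPL42A* CAU without replicate 3 of *prp18Δupf1Δ* (0.0673 and 0.0612). Of all 25 rises, 11 were called whichever library was left out, and of the 7 falls 3. The 25 sites lay in 22 introns, 10 to 37 nt from the branch point and 2 to 32 nt upstream of the annotated 3′SS.

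**Figure D3:**
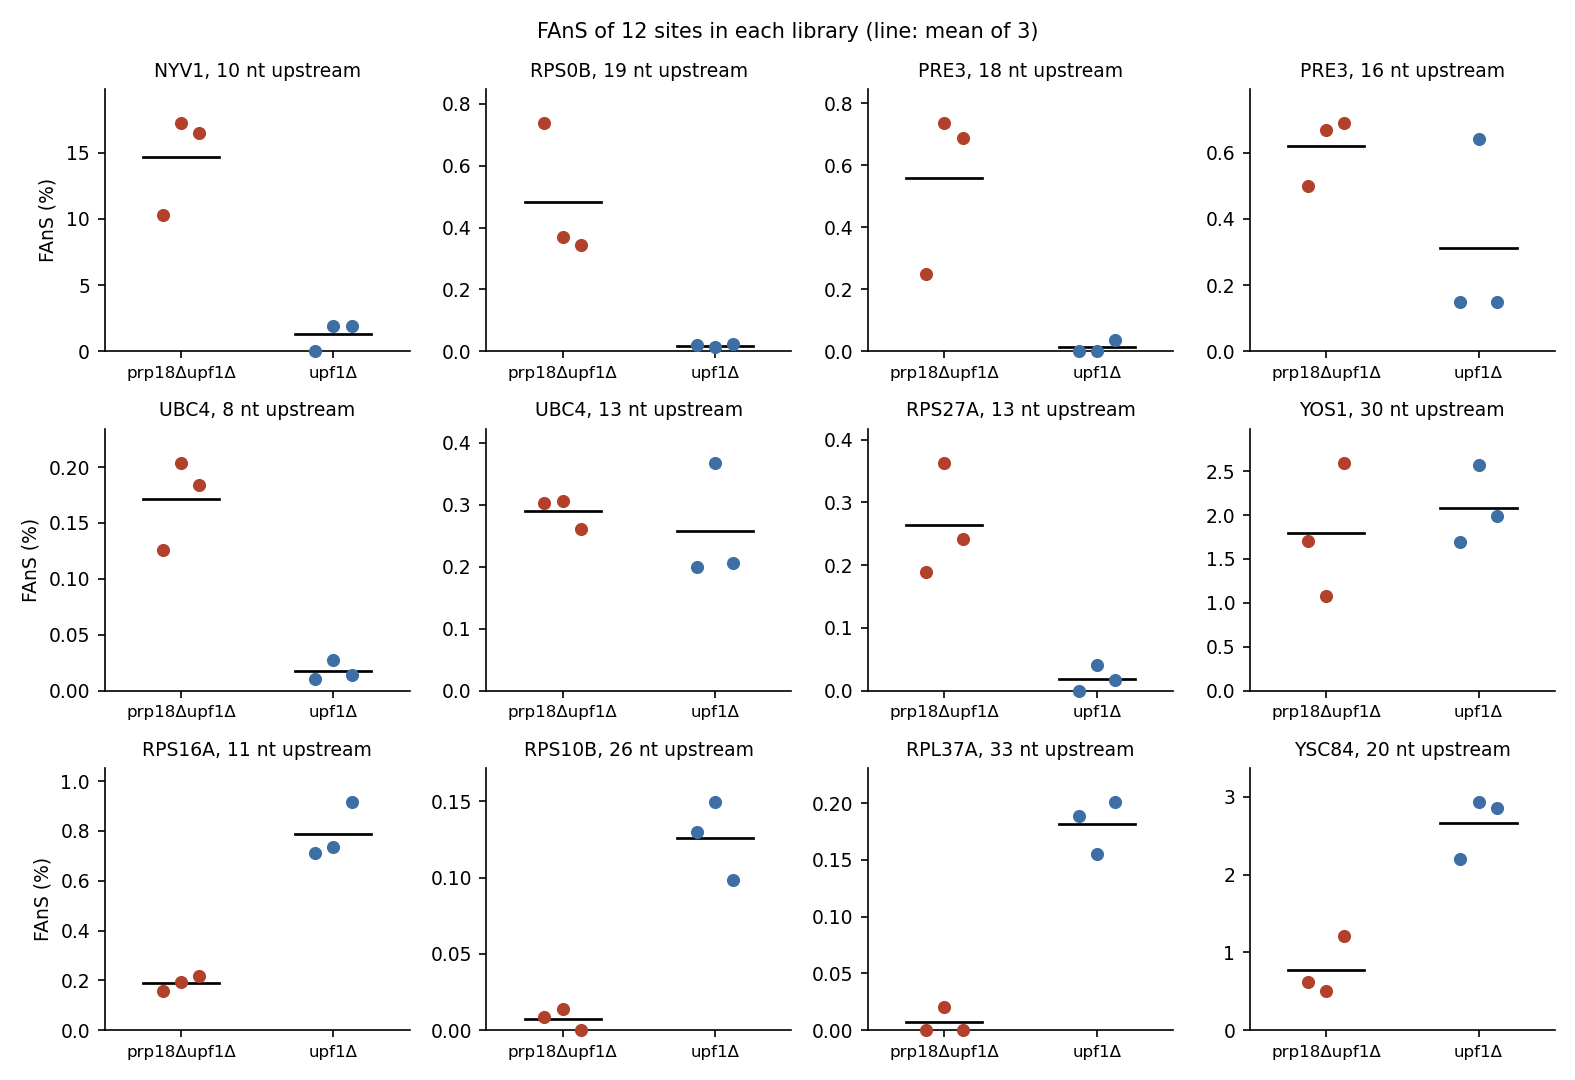
FAnS in percent (y axis of each panel, linear from 0) of 12 non-G 3′SS in each of 3 libraries of *prp18Δupf1Δ* (left, red) and *upf1Δ* (right, blue), with the mean as a line and the distance to the annotated 3′SS in the title. The *prp18Δupf1Δ* libraries sit above in *NYV1*, *RPS0B*, *RPS27A* and at 1 site each of *PRE3* and *UBC4*, overlap at the other site of *PRE3* and *UBC4* and in *YOS1*, and sit below in *RPS16A*, *RPS10B*, *RPL37A* and *YSC84*.

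Some well used non-G sites did not pass the threshold or fell in *prp18Δupf1Δ*. UAU of *YOS1*, a gene of transport between the endoplasmic reticulum and the Golgi, lay 30 nt upstream and 13 nt from the branch point. It had 33, 14 and 29 reads in *prp18Δupf1Δ* and 34, 40 and 32 in *upf1Δ*, a mean FAnS of 1.79% ± 0.76 in *prp18Δupf1Δ* and 2.08% ± 0.45 in *upf1Δ* (SD, n = 3 each). These overlap, and the log2 change of -0.24 did not pass the threshold (adjusted p = 0.653). UAU of *APE2*, which encodes an aminopeptidase, had 5, 0 and 2 reads in *prp18Δupf1Δ* and 3, 2 and 2 in *upf1Δ*, a FAnS of up to 3.29% in *prp18Δupf1Δ* and 3.37% in *upf1Δ* on fewer than 160 annotated reads (adjusted p = 0.580).

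The largest fall by reads was CAU of *RPS16A*, 11 nt upstream, with 10, 7 and 7 reads in *prp18Δupf1Δ* and 77, 69 and 108 in *upf1Δ*. *RPS16A* encodes a small subunit protein and its intron held 13 non-G sites, the most of any. FAnS of CAU was 0.158%, 0.193% and 0.216% in *prp18Δupf1Δ* and 0.710%, 0.737% and 0.915% in *upf1Δ* (log2 change -2.09 ± 0.35, SE, adjusted p = 1.94e-06). All 350 gapped reads of this junction were placed by BBMap alone, in 124 distinct alignments, so it is not among the sites kept when at least 1 read had to be placed by both aligners. Whether these reads mark a splice site used in the cells was not tested, and the sums over AU sites are for that reason also given without it. UAC of *RPS16A*, 8 nt upstream, had 0, 0 and 1 reads in *prp18Δupf1Δ* and 3, 4 and 8 in *upf1Δ*, and 18 of its 22 gapped reads were placed by both aligners (adjusted p = 0.114).

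The other falls with at least 20 gapped reads had reads placed by both aligners. At CAA of *RPL37A*, both placed 25 of the 53 gapped reads and STAR alone placed 28. CAA of *RPL37A*, a large subunit gene, had 0, 1 and 0 reads in *prp18Δupf1Δ* and 14, 12 and 17 in *upf1Δ* (log2 change -4.45 ± 0.87, SE, adjusted p = 3.18e-05). CAU of *RPS10B*, a small subunit gene, had 1, 1 and 0 reads in *prp18Δupf1Δ* and 22, 20 and 14 in *upf1Δ* (log2 change -3.77 ± 0.77, SE, adjusted p = 6.38e-05). Both lie 13 nt from the branch point, with 2 and 1 U in the 10 nt before the site. UAU of *YSC84*, which encodes an actin-binding protein, had 4, 2 and 4 reads in *prp18Δupf1Δ* and 10, 11 and 11 in *upf1Δ* (log2 change -1.84 ± 0.56, SE, adjusted p = 0.00852), and this call was lost without replicate 1 of *prp18Δupf1Δ* (adjusted p = 0.057). The remaining falls were CAU of *CPT1*, with 0 reads in *prp18Δupf1Δ* and 3, 5 and 2 in *upf1Δ*, UAA of *RPS0A*, with 0 and 1, 3 and 5, and UAA of *RPL14A*, with 1, 2 and 0 against 3, 3 and 6. Against the 3-read floor, *CPT1* CAU was at least 2.32-fold and *RPS0A* UAA at least 1.99-fold lower in *prp18Δupf1Δ*. The calls of these 3 sites were lost in most fits without 1 library. *CPT1* was called in 2 of 6 (adjusted p up to 0.0775, lost without any 1 library of *prp18Δupf1Δ* or without replicate 2 of *upf1Δ*). *RPS0A* was called only without replicate 1 of *upf1Δ* (up to 0.126 otherwise), and *RPL14A* only without replicate 2 of *prp18Δupf1Δ* (up to 0.158 otherwise). In all, 13 of the 116 tested sites had every *prp18Δupf1Δ* library below every *upf1Δ* library, against 18.8% of the 884 junctions, and the 7 falls were among them.

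Downstream of the annotated 3′SS lay 112 non-G sites, 93 of them within 3 nt. These share 1 or more letters with the annotated trinucleotide, as AGU in *RPS18A*, whose A and G are the last letters of the annotated site. AGU of *RPS18A* had 15, 7 and 6 reads in *prp18Δupf1Δ* and 14, 14 and 9 in *upf1Δ* (log2 change 0.11, adjusted p = 0.902). AGA of *RPL7A* had 11, 11 and 10 reads in *prp18Δupf1Δ* and 14, 14 and 11 in *upf1Δ*, a mean FAnS of 0.116% and 0.113% (adjusted p = 0.933). Both genes encode ribosomal proteins, and FAnS differed at neither site by more than the spread between libraries. GAC of *RPL21A* at 2 nt had 2, 1 and 3 reads in *prp18Δupf1Δ* against 1, 2 and 2 in *upf1Δ*, and AGC of *RPS11A* had 0, 0 and 1 against 0, 2 and 0. The 19 sites further downstream had too few reads to be tested.

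The 14 sites that fail the mismatch filter held 861 of the 4235 junction reads at non-G sites, and BBMap alone placed 99.1% of their gapped reads. CCA of *RPL29*, 1 nt upstream of the annotated 3′SS of an intron in the 5′ UTR, had 258, 73 and 59 reads in *prp18Δupf1Δ* and 206, 0 and 84 in *upf1Δ*, more than any other non-G site. Only 1 of its 751 gapped reads was free of a mismatch close to the junction (within 10 bp). ACA of *UBC9*, which encodes the SUMO-conjugating enzyme, had 26, 0 and 6 reads in *prp18Δupf1Δ* and 24, 9 and 9 in *upf1Δ*, with 1 of 88 gapped reads free of a mismatch. UUU of *DID4*, a gene of endosomal sorting, had 30, 2 and 0 reads in *prp18Δupf1Δ* and 25, 3 and 1 in *upf1Δ*, with 1 of 71. Replicate 1 of each strain was highest at all 3 sites. Together the 14 sites had 0.258, 0.0921 and 0.0871 reads per 1000 annotated reads in *prp18Δupf1Δ* and 0.194, 0.0161 and 0.0672 in *upf1Δ* (two-sided exact permutation p = 0.5). AAU of *GCR1*, an activator of glycolytic genes, had the highest mean FAnS in *prp18Δupf1Δ* but rests on 1 read beside 1 annotated read in replicate 1.

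Which of the trinucleotides present were used was counted in 280 annotated introns other than that of *HAC1*, taking every trinucleotide not ending in G from 8 nt behind the branch point up to the annotated 3′SS (the plot of the share used). Of 7472 such trinucleotides, 365 (4.88%) were non-G sites past the mismatch filter in at least 1 library. The share was 24.8% of 927 AU trinucleotides, against 5.82% of 791 ending in AA and 6.79% of 427 ending in AC. Without A in the second place, it was 1.92% of 2662 ending in U, 0.466% of 1717 ending in A and 0.105% of 948 ending in C. By trinucleotide, UAU (33.5% of 337) and CAU (33% of 185) were used most, ahead of AAU (15.7% of 280) and GAU (9.60% of 125). UAA, CAC and UAC lay between AAU and GAU, at 12.6%, 12.1% and 11.4%, and UUU, with 1013 the most frequent trinucleotide, was used at 2.67%. These shares have no test, since sites of 1 intron share its transcript level and its reads.

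Used AU trinucleotides lay closer to the branch point than unused ones, at a median of 19 nt against 26 nt, and had more U in the 10 nt before them, 4.65 against 3.86 on average. The share used was 17.1% with 0 to 2 U, 21.2% with 3 to 4 and 32.8% with 5 and over. By distance from the branch point it was 20% under 10 nt, 34.3% at 10 to 19 nt, 26.5% at 20 to 39 nt and 8.54% at 40 nt and over. Of AU trinucleotides in ribosomal protein genes (RPGs), 29.7% were used, against 20.1% in other genes, and the part of read depth in this difference was not tested. Among tested upstream AU sites, the rises were found in each class of U count, with 4 of 7 at 0 to 2 U, 5 of 19 at 3 to 4 U and 13 of 42 at 5 U and over. None of the 5 upstream AU sites at 40 nt and over rose, against 12 of 36 at 10 to 19 nt and 10 of 27 at 20 to 39 nt. No site under 10 nt had enough reads to be tested. The 12 upstream AU sites there had 7, 3 and 5 reads in *prp18Δupf1Δ* and 1, 0 and 0 in *upf1Δ*, and 11 of them were seen in *prp18Δupf1Δ* alone.

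**Figure D4:**
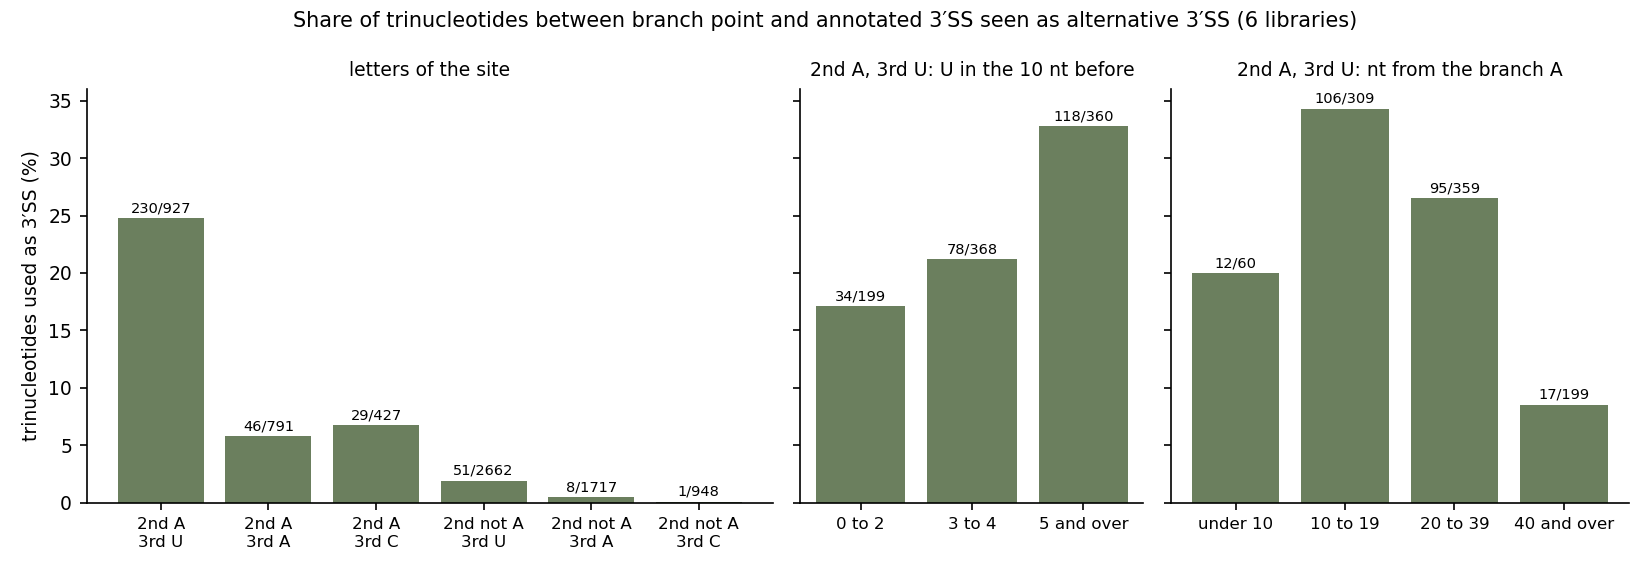
Percent of the trinucleotides between 8 nt behind the branch point and the annotated 3′SS that were seen as non-G 3′SS past the mismatch filter in any of the 6 libraries (y axis, linear from 0), by the last 2 letters (left), and for AU trinucleotides by the number of U in the 10 nt before the site (middle) and by distance from the branch point in nt (right). Numbers above the bars are used over present, and AU trinucleotides stand at 24.8% against at most 6.79% for any other pair of letters.

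Host genes of all classes held non-G sites. RPGs had 302 of the 492 sites and 73 of the 116 tested, of which 12 rose and 5 fell, with a median log2 change of 0.15. In other genes, 13 of 43 tested sites rose and 2 fell, with a median of 1.11. The difference between the gene classes was not tested. Among upstream AU sites, 11 of 38 rose in RPGs and 11 of 30 in other genes. Of the lists of host genes, vesicle traffic and vacuole had 4 tested sites, of which 2 rose (*NYV1* and *YIP3*), ubiquitin, SUMO, Rub1 and proteasome had 7, of which 2 rose (*PRE3* and *UBC4*), RNA processing and export had 1, that of *MUD1*, which rose, and cytoskeleton had 2, of which 1 rose, UAU of *ACT1*. *ACT1* UAU had 1, 4 and 0 reads in *prp18Δupf1Δ* and 0 in each *upf1Δ* library, and of the fits without 1 library only that without replicate 1 of *prp18Δupf1Δ* called it (adjusted p up to 0.337 otherwise). The call of *YIP3* UAU was lost without replicate 2 of *prp18Δupf1Δ* or replicate 1 of *upf1Δ* (adjusted p up to 0.239). No site of the mitochondrial list could be tested. The remaining genes had 29 tested sites, of which 7 rose and 2 fell.

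Support by aligner differed between the groups of sites. STAR and BBMap both placed at least 1 read at 427 of the 492 sites, BBMap alone supported 42 and STAR alone 19. All 25 rises were among the 106 tested sites placed by both at least once. In *RPS27A* and *RPL42A*, more gapped reads were placed by STAR alone (31 and 10) than by both (27 and 1), and at the other rises those placed by both were the most. A base that could belong to either side of the junction leaves the exact site open by that many positions, and 321 sites had none. Of the 71 tested sites without such a base, 21 rose and 5 fell, and of the 45 with 1 or more, 4 rose and 2 fell.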

How the data were processed

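Junction tables of 3 *prp18Δupf1Δ* and 3 *upf1Δ* libraries were used (stranded mRNA-seq). After trimming (cutadapt 1.18) and alignment by STAR 2.7.0d and BBMap to R64, the authors deposited junction read counts per library without normalisation. The deposited ratio FAnS followed from these counts at 12550 of 12550 entries. The deposited fraction of spliced reads and estimated counts of unspliced reads, which the authors halved over both splice sites, served only in an alternative.

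Each junction's counts and its intron's annotated counts were fitted with library terms in edgeR 4.0.16 (quasi-likelihood), with Benjamini-Hochberg adjustment over 884 junctions. Data were also simulated for junctions of all kinds, with a spread between libraries that was set and not estimated from these data. There, 4 of 100 junctions changed 2-fold, 21 of 100 changed 4-fold and 0 of 684 unchanged junctions were called. Many changes of this size were thus missed in the simulation, and its rates need not hold for the non-G sites. Sites were named by a rule: those of *NYV1* and *MUD1*, the largest changes with strains apart and at least 20 gapped reads, and the sites of most reads, highest FAnS or shortest branch point distance. Others were picked after their values were seen. A further site picked by the rule was left out of the text. Library values were compared by exact permutation (3 against 3). Members and lists were chosen with earlier results of these data known. Python 3.11.15 and R 4.3.3 were used. DESeq2 1.42.0 and limma 3.58.1 served as alternatives.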

Additional observations from a re-analysis of the deposited data

How the results depend on the processing

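The 25 rises and 7 falls were recounted under each alternative. Rises numbered 10 of 42 with a minimum of 20 gapped reads, 16 of 478 with no minimum, and 10 without replicate 1 of both strains. Leaving out each library in turn gave 16 to 22 rises and 3 to 6 falls. Falls numbered 4 with no ambiguous base, 4 by DESeq2, 3 with no minimum and 3 without replicate 1 of both strains. The cause of these shifts was not tested, beyond fewer libraries or other numbers of sites tested. The other alternatives stayed within 1.5 times: DESeq2 called 19 rises, limma 23 and 7 falls, the sum of annotated and unspliced reads as reference 22 and 7. Junctions of all kinds had 186 rises and 95 falls, against 143 and 54 by DESeq2.

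With the replicate number as a block, 22 rose and 5 fell. Same-numbered libraries correlated in their deviations at 0.294, 0.133 and 0.066, and differently numbered ones at -0.235 to 0.121, so the numbers were not taken to pair the samples.

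The higher rate of non-G reads in *prp18Δupf1Δ* kept its direction throughout, with a difference of 0.143 to 0.28 per 1000 annotated reads. The difference in the share of alternative 3′SS reads, -2.74 points, became 0.526 with no ambiguous base and -1.32 with at least 1 read placed by both aligners. Leaving out each library gave -3.68 to -1.49. Among 20 named sites, 13 were called, and 10 of these kept their call in every fit that held them. The fit with no ambiguous base leaves out *PRE3* UAU, *RPL42B* CAU and *RPL37A* CAA, and the fit of sites placed by both aligners leaves out *RPS16A* CAU. *MUD1* UAU, *RPL36B* UAU and *YSC84* UAU lost it in some, *YSC84* also by DESeq2 (adjusted p = 0.0548). Some sites that were not called changed sign when libraries were left out. The log2 change of *YOS1* UAU ranged from -0.53 without replicate 3 to 0.0121 without replicate 2 of *prp18Δupf1Δ*. That of *RPS18A* AGU ranged from -0.0906 without replicate 3 to 0.22 without replicate 2 of *upf1Δ*, with -0.0768 without replicate 1 of *prp18Δupf1Δ*, and that of *RPL7A* AGA from -0.11 without replicate 3 to 0.27 without replicate 1 of *upf1Δ*.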
